A study of Mus musculus with 4 samples.

Results

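Proteins of the BCL2 family control whether the outer membrane of the mitochondrion stays intact, and 10 of their genes were followed here in follicular B (FOB) cells of mice with Hnrnpf deleted in B cells. The members were picked by gene symbol and make up 10 of the 55401 genes of the count table. They are the pro-survival genes Mcl1, Bcl2, Bcl2a1b and Bcl2l1, the pore-forming effectors Bax and Bak1, and the BH3-only genes Bid, Bcl2l11, Pmaip1 and Bbc3. All 10 passed the filter on low counts that left 14123 genes for testing. The same symbols were looked up in the table of altered splicing events, where 1 of the 10 had an entry.

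FOB cells were sorted from the spleen of C57BL/6 mice at 7 weeks of age as B220+CD93-CD23highCD21low cells, and their poly(A) RNA was sequenced in 2 WT and 2 Hnrnpf bKO libraries. Both groups were Hnrnpf fl/fl, so WT cells carried the floxed Hnrnpf alleles too. Hnrnpf bKO mice, labelled HFKO, also carried Cre active in B lineage cells, which removes exon 4 of Hnrnpf. WT mice lacked Cre, so loss of hnRNP F cannot be told apart from the presence of the Cre allele. The study presents the libraries as a single experiment, and whether each came from a separate mouse or from pooled mice is not given in the sources used here. The p-values therefore measure only the spread between these samples, which may be technical.

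In a healthy B cell, pro-survival proteins of this family hold the effectors BAX and BAK in check. BH3-only proteins respond to lost survival signals or damage by occupying the groove of the pro-survival proteins or by activating the effectors, which then open pores and release cytochrome c. Naive follicular B cells live on signals from the B cell receptor and the BAFF receptor, and BIM, the product of Bcl2l11, is known as a main brake on their number. hnRNP F and its relatives of the hnRNP H group bind runs of G in pre-mRNA and act on alternative splicing. BCL-X, made from Bcl2l1, and MCL1 are textbook cases of family members whose alternative splicing yields proteins of opposite effect.

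The coding sequences that those textbook splice choices keep or drop are shown first, with runs of at least 3 G in capitals. The end of exon 2 of Bcl2l1 (chr2:152829427-152829606, GRCm38, minus strand, 180 bases) lies in the part of the exon that the long form keeps and the short form, made from an upstream 5′ splice site, lacks. Exon 2 of Mcl1 (chr3:95659761-95660008, plus strand, 248 bases) is the exon whose skipping gives the short form. The stretch of Bcl2l1 holds 3 such runs and the exon of Mcl1 holds 2.
Bcl2l1 exon 2 end: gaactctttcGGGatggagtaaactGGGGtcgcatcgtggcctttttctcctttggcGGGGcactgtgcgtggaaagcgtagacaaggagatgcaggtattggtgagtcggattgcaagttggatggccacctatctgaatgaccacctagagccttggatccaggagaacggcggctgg
Mcl1 exon 2: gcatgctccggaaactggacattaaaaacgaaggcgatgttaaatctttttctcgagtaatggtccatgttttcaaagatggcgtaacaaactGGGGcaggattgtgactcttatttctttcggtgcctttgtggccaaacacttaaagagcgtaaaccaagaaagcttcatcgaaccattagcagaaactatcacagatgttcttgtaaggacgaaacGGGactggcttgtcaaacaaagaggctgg

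Hnrnpf, the targeted gene, had 5780 and 6634 counts in WT against 1167 and 1194 in Hnrnpf bKO cells. It was reduced to 0.201 of the WT level (log2 fold change −2.32, standard error 0.06, adjusted p = 1.05e-10). This p, like every adjusted p below, was computed with the quasi-likelihood test of edgeR unless another tool is named. The Benjamini-Hochberg adjustment ran over all genes tested, which were 14123 unless another setting is named. Its counts cover the whole gene, so the deleted exon 4 was not measured on its own. Count totals ranged from 15698567 to 18908963 per library, and replicate libraries differed beyond sampling noise (chi-square per degree of freedom of 4.30 in WT and 3.86 in Hnrnpf bKO).

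The markers of a follicular B cell were abundant in all libraries, with a summed level over 8 genes of 13471 and 13571 CPM (counts scaled to the library total) in WT against 13732 and 13710 in Hnrnpf bKO. Of these 8, Fcer2a and Ighd were called higher and Ms4a1, Cr2 and Pax5 lower. CD23, the protein of Fcer2a, and CD21, that of Cr2, were themselves used in the sort. The 3 markers of immature or transitional B cells summed to 72.6 and 80.8 CPM in WT against 80.1 and 79.3 in Hnrnpf bKO, which overlapped. Of them Vpreb3, the most abundant, had a log2 fold change of −0.10 (adjusted p = 0.477). Cd93, whose protein the sort excluded, had 138 and 222 counts in WT against 261 and 354 in Hnrnpf bKO cells (log2 fold change 0.85, adjusted p = 0.00661), while Rag1 was at 0 in 3 libraries and 1 in the fourth. Of 5 neutrophil markers, S100a8 and S100a9 alone were abundant enough to be tested, and both were called higher. The summed level of all 5 was 5.26 and 7.35 CPM in WT against 12.9 and 21.4 in Hnrnpf bKO. No marker of T cells, macrophages or monocytes, natural killer cells, red cells, or germinal center B or plasma cells was called. Of 5 marginal zone B cell markers, Cd1d1 was called higher and Dtx1 and S1pr3 lower. In bulk RNA, a change in the share of cells of a type and a change in RNA per cell cannot be told apart, and the part of these shifts in the values below was not tested.

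Of the 10 members, Bcl2 and Bcl2l11 rose in Hnrnpf bKO FOB cells, both by less than 2-fold. At an adjusted p of at most 0.05, 2 of 10 members were called higher and 0 lower, against a background of 6.97% of all tested genes called in either direction, 4.15% higher and 2.83% lower. At an unadjusted p under 0.05, 3 members were higher and 1 lower by edgeR, and DESeq2 gave 3 and 0. The share of all tested genes at that threshold was not computed, so these counts have no background to be read against. The median log2 fold change of the 10 members was 0.00, as was that of all tested genes. With the additional threshold of a 2-fold change that the study applied, 0 of 10 members were called by edgeR or DESeq2, against 0.899% of all tested genes, and 0 members changed 2-fold at an unadjusted p under 0.05 either. Overlap of the libraries was judged here in counts scaled by TMM, a normalization for library size. By this measure the libraries of both groups did not overlap for 6 members, against 50.1% of all tested genes. In FPKM, those of Mcl1 did not overlap either.

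**Figure D1:**
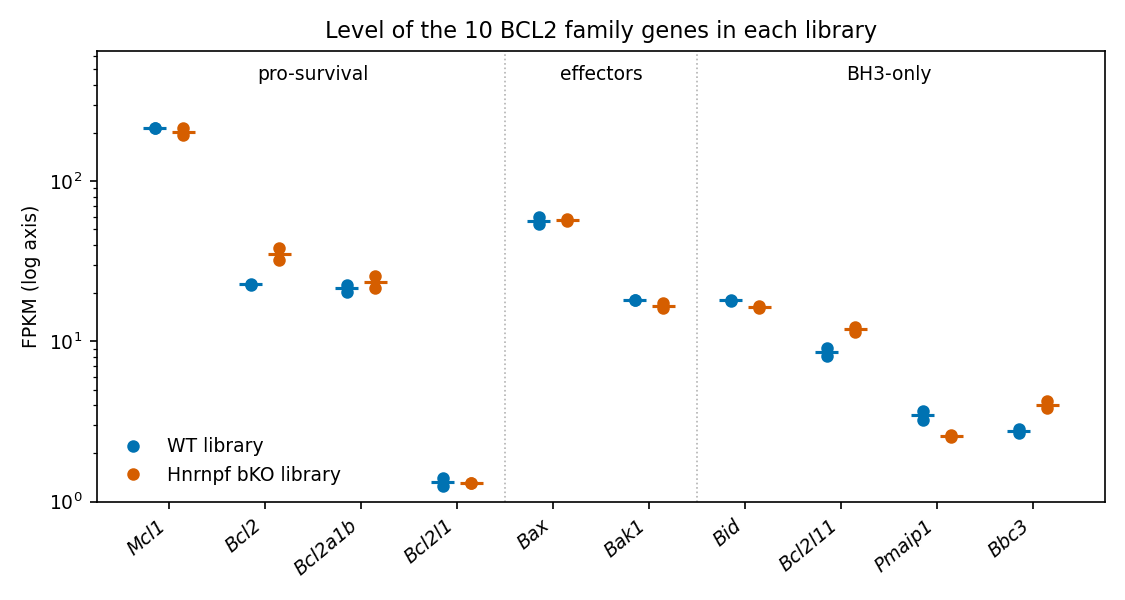
Level of each member in FPKM on a log axis, with WT libraries in blue, Hnrnpf bKO libraries in orange, each point 1 library and each short line the mean of 2 libraries. Mcl1 lies highest at 193 to 215 FPKM and Bcl2l1 lowest at 1.25 to 1.40 FPKM, and Bcl2, Bcl2l11 and Bbc3 show both Hnrnpf bKO points above both WT points.

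Levels between genes are compared here in FPKM, the deposited abundance per length of exons and per library total. In WT FOB cells the order from the highest was Mcl1, Bax, Bcl2, Bcl2a1b, Bid, Bak1, Bcl2l11, Pmaip1, Bbc3 and Bcl2l1. Bid and Bak1 overlapped in FPKM and had no order beyond the spread of the libraries, whereas every other pair of neighbours was separated in both libraries. Bcl2 and Bcl2a1b were close in WT, with the lowest value of Bcl2 at 22.61 and the highest of Bcl2a1b at 22.46 FPKM. The place of Bcl2a1b is uncertain, because it shares sequence with near-identical copies. Of these, Bcl2a1d was counted apart, at a mean of 10.4 FPKM in WT and 17.0 in Hnrnpf bKO. In Hnrnpf bKO cells Bak1 and Bid again overlapped, and Bbc3 stood above Pmaip1, the reverse of the WT order. Mcl1 alone gave 58.9% and 57.8% of the summed FPKM of the 10 members in WT against 53.5% and 55.9% in Hnrnpf bKO.

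Among the pro-survival members, Bcl2 (ENSMUSG00000057329, chr1:106538178-106714274, minus strand) encodes the founding protein of the family and was called higher. It had 3391 and 3915 counts in WT against 4600 and 6282 in Hnrnpf bKO cells. Its level was 22.63 and 22.61 FPKM in WT against 32.00 and 37.96 FPKM in Hnrnpf bKO. Both Hnrnpf bKO libraries lay above both WT libraries, and the second Hnrnpf bKO library was the highest. The fold change was 1.56 (95% interval 1.40 to 1.73, log2 fold change 0.64, standard error 0.07, adjusted p = 1.70e-04). It was not called with limma-trend on log2(FPKM + 0.1) (adjusted p = 0.0788) or log2(FPKM + 1) (adjusted p = 0.0827). D630008O14Rik, an antisense gene that shares 558 exonic bases with Bcl2, had 25 to 30 counts per library, few beside those of Bcl2.

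Mcl1 (ENSMUSG00000038612, chr3:95658788-95663176, plus strand) encodes a short-lived protein on which B cells depend. It was the most abundant member, with 12002 and 13836 counts in WT against 10379 and 13152 in Hnrnpf bKO cells. In FPKM it stood at 214.63 and 214.08 in WT against 193.43 and 212.89 in Hnrnpf bKO. The first Hnrnpf bKO library was the lowest and the second lay just under WT in FPKM, while counts scaled by TMM, a normalization for library size, overlapped between groups. The log2 fold change of −0.07 (95% interval −0.18 to 0.05, adjusted p = 0.558) did not pass the test, and the interval excludes a rise or fall of the size seen for Bcl2.

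Bcl2l1 (ENSMUSG00000007659, chr2:152780668-152831728, minus strand), which encodes BCL-X, was the least abundant member. It had 105 and 108 counts in WT against 94 and 108 in Hnrnpf bKO cells, or 1.40 and 1.25 FPKM against 1.31 and 1.30 FPKM. The groups overlapped, and the log2 fold change of −0.01 came with a wide interval of −0.44 to 0.42 (adjusted p = 0.991). In fold change this is 0.740 to 1.34, and a difference within it was not detectable at this depth. The ratio of Bcl2 to Bcl2l1 in FPKM was 16.2 and 18.1 in WT against 24.4 and 29.2 in Hnrnpf bKO, with no overlap.

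Bcl2a1b (ENSMUSG00000089929, chr9:89199209-89207827, plus strand) is a copy of the gene for A1, a pro-survival protein induced by NF-κB. Mice carry several near-identical copies of it on chromosome 9, so a read of Bcl2a1b can also match Bcl2a1d or Bcl2a1a, and the other way round. The first 120 coding bases of these 3 genes are shown because they hold 7 positions, in capitals, at which the copies differ.
Bcl2a1b: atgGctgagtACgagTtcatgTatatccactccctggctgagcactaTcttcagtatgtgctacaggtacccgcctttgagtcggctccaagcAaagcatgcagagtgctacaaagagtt
Bcl2a1d: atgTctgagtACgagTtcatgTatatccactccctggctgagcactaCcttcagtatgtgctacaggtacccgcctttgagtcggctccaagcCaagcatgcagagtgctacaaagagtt
Bcl2a1a: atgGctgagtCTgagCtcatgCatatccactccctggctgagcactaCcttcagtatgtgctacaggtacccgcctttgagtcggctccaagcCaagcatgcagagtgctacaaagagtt

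Over the 516 coding bases, Bcl2a1b differed from Bcl2a1d at 6 bases (98.8% identity) and from Bcl2a1a at 11 bases (97.9%). Of all stretches of 150 bases in the transcript of Bcl2a1b, the length of a read, 14.2% also occurred in at least 1 of the other 2 genes. For Bcl2a1d this share was 30.3% and for Bcl2a1a 28.2%. The study sequenced both ends of each fragment, whereas these shares take each read alone. The values of the single copies are thus uncertain. Those of their sum are less so if shared reads were credited to 1 copy, but incomplete too if such reads were left out. Bcl2a1b also shares 401 exonic bases on the same strand with Gm29094 (0 to 4 counts per library), and how reads shared by 2 genes were counted is not given in the sources used here.

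Bcl2a1b had 273 and 347 counts in WT against 326 and 316 in Hnrnpf bKO cells, and the groups overlapped (log2 fold change 0.13, 95% interval −0.13 to 0.39, adjusted p = 0.597). Bcl2a1d, which is no member and was listed as a paralog, had 159 and 155 counts in WT against 219 and 279 in Hnrnpf bKO cells. Both Hnrnpf bKO libraries lay above both WT libraries, and the rise passed the test (log2 fold change 0.73, standard error 0.15, adjusted p = 0.0102), though not with limma-trend on log2(FPKM + 0.1) (adjusted p = 0.0813) or log2(FPKM + 1) (adjusted p = 0.0835). Whether Bcl2a1d rose by more than Bcl2a1b was not tested. Bcl2a1a had 0 and 0 counts in WT against 4 and 9 in Hnrnpf bKO cells. It was too low to be tested, and no fold change is given.

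Summed into 1 gene, the 3 copies had 432 and 502 counts in WT against 549 and 604 in Hnrnpf bKO cells. In CPM this was 26.4 and 26.5 in WT against 35.0 and 33.4 in Hnrnpf bKO cells, with no overlap. The pooled copies were called higher (log2 fold change 0.38, adjusted p = 0.0198), with Bcl2a1d at 9.72 and 8.20 CPM in WT against 14.0 and 15.4 in Hnrnpf bKO and Bcl2a1b at 16.7 and 18.4 CPM against 20.8 and 17.5. Bcl2a1b gave 63.2% and 69.1% of these counts in WT against 59.4% and 52.3% in Hnrnpf bKO. Bcl2a1 copies are also expressed by neutrophils, and S100a8 had 30, 48, 81 and 134 counts over the libraries in the order WT 1, WT 2, Hnrnpf bKO 1 and Hnrnpf bKO 2. Ly6g had 1 count in each of the first 3 of these libraries and 13 in the last, and the part of such cells in the Bcl2a1 values was not tested.

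**Figure D2:**
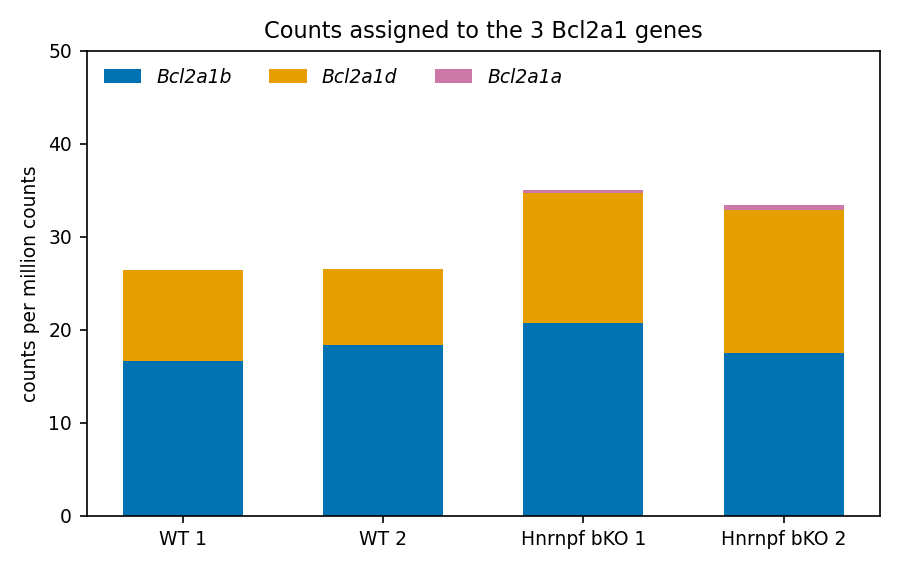
CPM credited to Bcl2a1b, Bcl2a1d and Bcl2a1a in each library, stacked, with 1 bar per library. The bars reach 26.4 and 26.5 in WT against 35.0 and 33.4 in Hnrnpf bKO, and the segment of Bcl2a1d is taller in both Hnrnpf bKO libraries.

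The effectors did not pass the test in either direction. Bax (ENSMUSG00000003873, chr7:45461697-45466898, minus strand) had 1382 and 1782 counts in WT against 1385 and 1640 in Hnrnpf bKO cells, or 53.60 and 59.80 FPKM against 55.98 and 57.57 FPKM. Both Hnrnpf bKO values lay between the WT values, and the log2 fold change was 0.01 (95% interval −0.13 to 0.16, adjusted p = 0.944). Bak1 (ENSMUSG00000057789, chr17:27019810-27029009, minus strand) had 708 and 819 counts in WT against 655 and 699 in Hnrnpf bKO cells, or 17.98 and 17.99 FPKM against 17.33 and 16.07 FPKM. Its Hnrnpf bKO libraries lay below those of WT without overlap, but the log2 fold change of −0.10 (SE 0.08, adjusted p = 0.560) was not past the threshold. The 95% interval of the fold change was 0.912 to 1.12 for Bax and 0.829 to 1.06 for Bak1. Bak1 shares exonic bases with Ggnbp1 on the opposite strand, which had 81 to 96 counts per library.

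Among the BH3-only members, Bcl2l11 (ENSMUSG00000027381, chr2:128126038-128162547, plus strand), which encodes BIM, rose. It had 1195 and 1228 counts in WT against 1556 and 1655 in Hnrnpf bKO cells. In FPKM these were 9.10 and 8.09 in WT against 12.34 and 11.40 in Hnrnpf bKO. Both Hnrnpf bKO libraries lay above both WT libraries, and the fold change was 1.39 (95% interval 1.25 to 1.56, log2 fold change 0.48, standard error 0.07, adjusted p = 0.00196). As for Bcl2, the call was lost with limma-trend on log2(FPKM + 0.1) (adjusted p = 0.111) and log2(FPKM + 1) (adjusted p = 0.113). Counts were made for whole genes, so the isoforms of BIM, with 8 annotated transcripts, were not separated.

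Bbc3 (ENSMUSG00000002083, chr7:16308393-16318205, plus strand) encodes PUMA, a target of p53 and FoxO factors that binds all pro-survival members. It had 99 and 108 counts in WT against 141 and 147 in Hnrnpf bKO cells, or 2.85 and 2.69 FPKM against 4.23 and 3.83 FPKM. The groups did not overlap, and the log2 fold change of 0.55 was similar to that of Bcl2l11 in size. Its interval was wider, 0.16 to 0.94, and the adjusted p of 0.0909 did not pass the threshold. Over the alternatives it ranged from 0.0510 to 0.312, above the threshold in each.

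Pmaip1 (ENSMUSG00000024521, chr18:66458533-66465565, plus strand) encodes NOXA, which binds MCL1 and A1. It had the most negative log2 fold change of the 10. It had 163 and 168 counts in WT against 111 and 124 in Hnrnpf bKO cells, or 3.65 and 3.25 FPKM against 2.59 and 2.51 FPKM. Both Hnrnpf bKO libraries lay below those of WT, and the log2 fold change was −0.42 (95% interval −0.79 to −0.06, unadjusted p = 0.0263 from the same edgeR test, adjusted p = 0.170). It was not called under any alternative (adjusted p of 0.160 to 0.498).

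Bid (ENSMUSG00000004446, chr6:120891930-120916853, minus strand) encodes the BH3-only protein that caspase-8 cleaves to join death receptors to the mitochondrion. It had 1038 and 1216 counts in WT against 928 and 1032 in Hnrnpf bKO cells, or 17.87 and 18.11 FPKM against 16.65 and 16.08 FPKM. The Hnrnpf bKO libraries were lower without overlap, and the log2 fold change of −0.13 (95% interval −0.28 to 0.03, adjusted p = 0.351) did not pass the test. Bid shares 628 exonic bases with Bcl2l13 on the opposite strand, and the strand setting of the counting is not given in the sources used here. Bcl2l13 itself had a log2 fold change of −0.02 (adjusted p = 0.933).

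**Figure D3:**
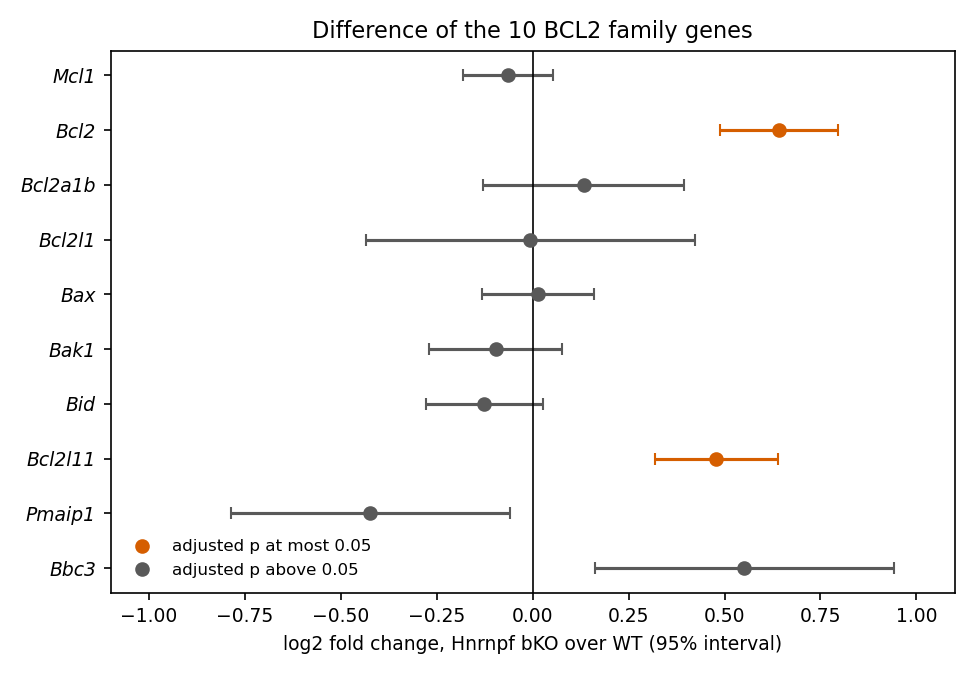
Log2 fold change of each member, Hnrnpf bKO over WT, with the 95% interval from edgeR's quasi-likelihood fit. Orange marks an adjusted p of at most 0.05, held by Bcl2 (0.64) and Bcl2l11 (0.48), and grey marks the other 8 members, of which Bbc3 (0.55) and Pmaip1 (−0.42) have unadjusted intervals that leave out 0.

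Ratios of FPKM between members within a library do not depend on the scaling of the libraries. Mcl1 to Bcl2 stood at 9.48 and 9.47 in WT against 6.04 and 5.61 in Hnrnpf bKO without overlap. Bcl2 to Bax was 0.422 and 0.378 in WT against 0.572 and 0.659 in Hnrnpf bKO, also without overlap. Bcl2 to Bcl2l11, the called pro-survival gene against the called BH3-only gene, was 2.49 and 2.79 in WT against 2.59 and 3.33 in Hnrnpf bKO and overlapped.

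Mcl1 to Bcl2l11 was 23.6 and 26.5 in WT against 15.7 and 18.7 in Hnrnpf bKO without overlap, while Mcl1 to Pmaip1 was 58.8 and 65.9 in WT against 74.7 and 84.8 in Hnrnpf bKO. The sum of the 4 pro-survival members over that of the 4 BH3-only members was 7.74 and 8.10 in WT against 7.04 and 8.09 in Hnrnpf bKO, and it overlapped. The pro-survival share of the summed FPKM of all members was 71.2% and 70.3% in WT against 69.8% and 71.8% in Hnrnpf bKO, which overlapped as well. The summed FPKM of the BH3-only members was 33.5 and 32.1 in WT against 35.8 and 33.8 in Hnrnpf bKO, without overlap. The pro-survival sum, at 259 and 260 in WT against 252 and 274 in Hnrnpf bKO, overlapped and came mostly from Mcl1. The effector sum overlapped too. With 2 libraries a group, the smallest two-sided p of an exact permutation test of such a ratio or sum is 0.333. No test is given.

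The promoters of the called members are shown because both genes rose. Each is the 250 bases before the RefSeq start (GRCm38.p6), that of Bcl2 at chr1:106714291-106714540 on the minus strand and that of Bcl2l11 at chr2:128125788-128126037 on the plus strand. Capitals in the Bcl2l11 promoter mark GTAAACA, which is TGTTTAC on the other strand, the core bound by FoxO factors.
Bcl2 promoter: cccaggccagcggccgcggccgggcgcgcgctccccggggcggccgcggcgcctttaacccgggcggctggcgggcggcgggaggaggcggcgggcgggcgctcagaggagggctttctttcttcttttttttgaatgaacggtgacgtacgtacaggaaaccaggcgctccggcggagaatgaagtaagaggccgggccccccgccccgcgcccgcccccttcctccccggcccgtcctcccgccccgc
Bcl2l11 promoter: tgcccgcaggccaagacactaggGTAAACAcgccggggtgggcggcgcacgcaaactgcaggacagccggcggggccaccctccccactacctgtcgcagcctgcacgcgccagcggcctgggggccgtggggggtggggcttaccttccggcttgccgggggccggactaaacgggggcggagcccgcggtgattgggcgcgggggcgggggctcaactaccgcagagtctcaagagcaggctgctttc

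TGTTTAC on either strand was found in 3.17% of 32851 RefSeq promoters of this length, and among the 14 promoters listed for 9 of the 10 members it was found in 2, those of Bbc3 and Bcl2l11. The first G of the site in the Bcl2l11 promoter is also the last base of a run of 3 G. TGACGTCA, the site of CREB proteins, was in 1.55% of promoters and in none of those of the members. Foxo1 mRNA had 4596 and 4924 counts in WT against 4506 and 5328 in Hnrnpf bKO cells (log2 fold change 0.12, adjusted p = 0.256). These matches are letters in a window and not measured binding.

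The authors' table of altered splicing between WT and Hnrnpf bKO FOB cells holds 1556 events in 1173 genes, and it names Bid, with 1 exon skipping event, as the only member. A row was present for 8.22% of the tested genes and for 10.6% of those that averaged 100 counts or more, so 1 of 10 members is near the background. Neither Bcl2l1 nor Mcl1 had an event. The table holds significant events alone, so a gene without a row was not shown to be spliced alike in both groups, and for Bcl2l1 about 100 counts per library stood behind any such comparison. The table gives no coordinates of its events, and which exon of Bid is meant was not analysed here.

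Exons 3, 4 and 5 of the transcript Bid-201 on the minus strand of chromosome 6 are shown as examples of inner coding exons. Exon 2 of Bid-201, and exons found only in other annotated transcripts of Bid, were not examined and could hold the event as well. They lie at chr6:120900156-120900366 (211 bases), chr6:120897220-120897359 (140 bases) and chr6:120895619-120895831 (213 bases). Exon 3 holds 4 runs of at least 3 G, in capitals, and exons 4 and 5 hold 0. The lengths of exons 3 and 4 leave remainders of 1 and 2 on division by 3, so skipping either alone would shift the reading frame, whereas that of exon 5 leaves 0.
Bid exon 3: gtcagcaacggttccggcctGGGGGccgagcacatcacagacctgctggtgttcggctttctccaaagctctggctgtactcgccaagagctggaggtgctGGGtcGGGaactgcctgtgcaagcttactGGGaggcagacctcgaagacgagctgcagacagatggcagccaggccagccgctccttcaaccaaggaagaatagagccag
Bid exon 4: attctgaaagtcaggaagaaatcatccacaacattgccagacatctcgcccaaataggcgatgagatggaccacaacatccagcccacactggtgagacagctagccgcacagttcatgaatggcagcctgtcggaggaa
Bid exon 5: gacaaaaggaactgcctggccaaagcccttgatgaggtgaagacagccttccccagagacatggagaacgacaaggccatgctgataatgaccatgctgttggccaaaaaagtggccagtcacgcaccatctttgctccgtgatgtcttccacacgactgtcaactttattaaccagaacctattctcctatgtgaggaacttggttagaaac

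Another 50 genes of apoptosis were followed as lists by role. Of these, 42 were tested, 2 were called higher and 0 lower, beside the background of 4.15% higher and 2.83% lower. At an unadjusted p under 0.05, 5 were higher and 0 lower by edgeR, and DESeq2 gave 4 and 0, again without a background from all tested genes. The median log2 fold change of the 42 tested genes was 0.02. Of 9 pro-survival genes, members included, 6 were tested and Bcl2, Bcl2a1d and Bcl2l2 were called higher. Bcl2l2, which encodes BCL-W, had 285 and 332 counts in WT against 366 and 409 in Hnrnpf bKO cells, without overlap in FPKM (3.90 and 3.93 against 5.23 and 5.07). The log2 fold change of Bcl2l2 was 0.40 with a standard error of 0.10 (adjusted p = 0.0336). The call was lost with any 1 of the 4 libraries left out (adjusted p of 0.0682 to 0.116) and with DESeq2 (adjusted p = 0.153).

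Of 8 BH3-only genes, 6 were tested and Bcl2l11 alone was called. Bmf, a BH3-only gene tied to the cytoskeleton, had a log2 fold change of −0.09 (adjusted p = 0.588). Of the 8 BCL2-related genes of other function, 7 were tested and 0 called, among them Bnip2 (0.05, adjusted p = 0.684) and Bnip3l (0.12, adjusted p = 0.462). None of the 8 genes of the apoptosome and caspases was called. Casp8, the initiator that cleaves BID, had a log2 fold change of 0.04 (adjusted p = 0.771), and Casp2 one of 0.17 (adjusted p = 0.0893).

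Of the 8 inhibitors of caspases and their antagonists, 0 were called, with Birc3 at a log2 fold change of 0.02 (adjusted p = 0.923) and Birc6 at −0.03 (adjusted p = 0.877). Of the 6 genes of death receptor signaling, 0 were called, with Tradd at −0.06 (adjusted p = 0.725) and Ripk1 at 0.16 (adjusted p = 0.281). Trp53, which encodes p53 and was the most abundant of the 7 transcription factors and p53 targets, had 2991 and 3379 counts in WT against 2780 and 3424 in Hnrnpf bKO cells (log2 fold change 0.03, adjusted p = 0.802), and 0 of the 6 tested genes of that list were called. The regulators of MCL1 protein stability, Huwe1 (0.05, adjusted p = 0.678), Usp9x (0.05, adjusted p = 0.639) and Fbxw7 (−0.13, adjusted p = 0.404), were not called either.

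Of these 50 genes, 7 had entries in the authors' splicing table, all of them among the 42 tested. The background was 8.22% of all tested genes and 10.6% of those that averaged 100 counts or more. Whether 7 of 42 differs from this background was not tested. Huwe1, a ubiquitin ligase that acts on MCL1, had an alternative 3′ splice site and an exon skipping event, and Usp9x, the enzyme that removes ubiquitin from MCL1, had an exon skipping event. Fbxw7, part of a further ubiquitin ligase of MCL1, had 2 exon skipping events. Bcl2l13 and Birc6 had 1 exon skipping event each. Bcl2l12 had an alternative 5′ splice site and Diablo, the antagonist of caspase inhibitors, a retained intron. None of the 7 was called for a change in abundance.

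**Figure D4:**
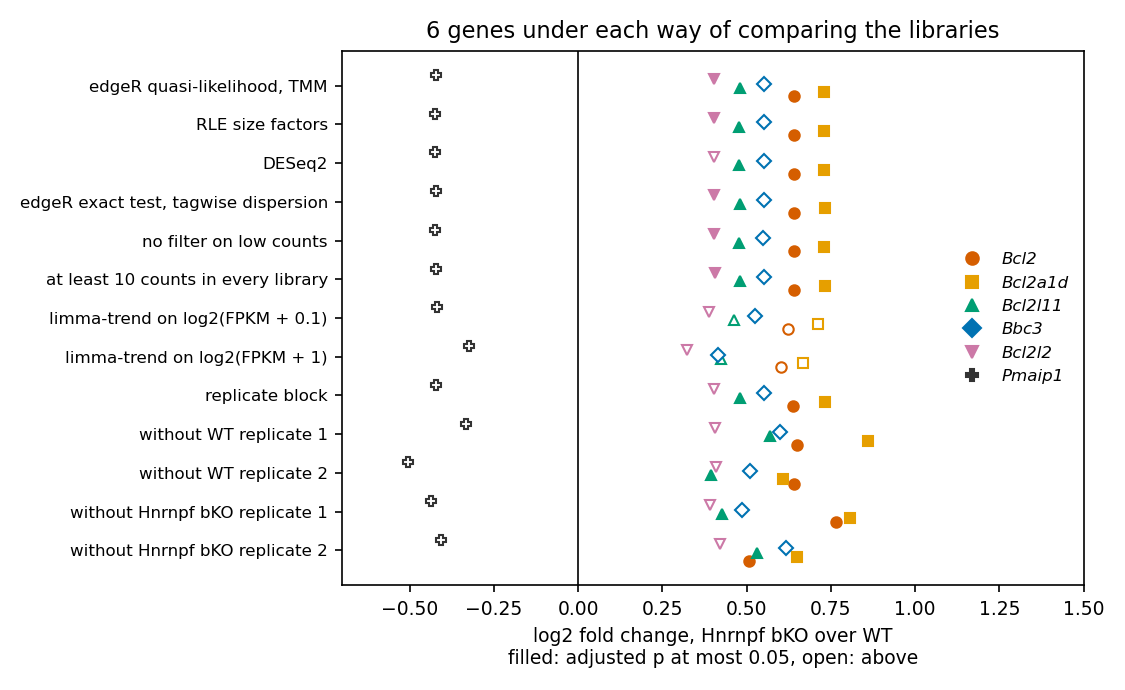
Log2 fold change, Hnrnpf bKO over WT, of 6 genes under each way of comparing the libraries, with filled symbols for an adjusted p of at most 0.05 and open symbols above it. Bcl2 and Bcl2l11 are filled in every row but those of limma-trend, Bcl2l2 is open in 8 of the 12 alternatives, and Bbc3 and Pmaip1 are open throughout.

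Under each alternative Bcl2, Bcl2l11, Bcl2a1d, Bcl2l2 and Bbc3 had positive and Pmaip1 negative log2 fold changes. With each library left out in turn, the log2 fold change of Bcl2 lay between 0.51 and 0.76 and that of Bcl2l11 between 0.39 and 0.57, and both genes were called each time.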

How the data were processed

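The samples were grouped by their labelled genotype into 2 WT and 2 Hnrnpf bKO libraries. The authors trimmed the reads with cutadapt 1.9.1, aligned them with HISAT2 2.0.1 to GRCm38 and counted them per gene with HTSeq 0.6.1, versions per the submitters' processing notes. The strand setting and the annotation release are not given in the sources used here. The deposited counts are whole numbers without normalization. The authors derived the deposited FPKM from counts, exonic gene sizes and library totals. For all 10 members the deposited exonic sizes equal those of GENCODE M21. In the splicing table, made by the authors with rMATS, the FDR is the authors' adjusted p-value and the inclusion level difference is the authors' signed score for WT minus Hnrnpf bKO. Neither was used, and only gene names and event types were read.

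Counts were compared with edgeR 4.0.16 in R 4.3.3 (TMM normalization with factors of 0.992 to 1.01, filterByExpr, quasi-likelihood F test, Benjamini-Hochberg adjustment, with calls at 0.05 or less). The study's methods name DESeq2, which was run as an alternative (1.42.0), as were other count filters, RLE size factors, the exact test of edgeR, limma-trend 3.58.1 on log2(FPKM + 0.1) or log2(FPKM + 1) where the mean FPKM reached 0.5, a replicate block, each library left out, and the Bcl2a1 copies summed. Tested on simulated data for this comparison with 13878 genes tested, the fit recovered 45 of 70 genes changed 1.4-fold and 125 of 130 changed 2-fold or 4-fold, with 5 false calls. Every simulated gene was given the same dispersion, the spread beyond sampling noise. Recovery and false calls where genes differ in dispersion were therefore not tested. The biological coefficient of variation was 5.90%, and log2 fold changes had a median standard error of 0.08 among genes averaging 100 counts or more.

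The members, gene lists and markers were chosen with earlier results of these data known. The text names all members, the Bcl2a1 paralogs, listed genes that passed the test, the 2 most abundant of each list that did not and listed genes with a splicing row, and Hnrnpf. A further gene of this rule and of the marker lists is not reported here. Fadd, Tnfrsf10b, the untested genes of the lists, genes that overlap members and the marker genes given with values are named outside this rule, after their values were seen. Promoters are those of RefSeq (GRCm38.p6), and exons and coding sequences those of GENCODE M21 (GRCm38). Protein and intron sequences were not analysed here.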

Additional observations from a re-analysis of the deposited data

How the results depend on the processing

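Bcl2 and Bcl2l11 were the 2 members called with RLE size factors, DESeq2, edgeR's exact test, either count filter, the replicate block and each library left out (2 to 2). With limma-trend on log2(FPKM + 0.1) and on log2(FPKM + 1), 0 members and 0 other listed genes were called, and over all genes 45 and 41 were called in place of 985. The cause was not tested. At a 2-fold change, 0 members were called under every alternative.

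The number of other listed genes called, 2 in the report, was 1 with DESeq2 and 1 with the replicate block, 3 with the exact test and 3 without a count filter (Fadd being the third in both), and it lay between 1 and 3 with a library left out. It was 1 (Bcl2a1d) without WT replicate 1 or either Hnrnpf bKO library, and 3 without WT replicate 2, when Fadd and Tnfrsf10b joined Bcl2a1d. Over all genes, 679 to 861 were called with a library left out, 668 with DESeq2, 1275 with the exact test and 1470 without a count filter.

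The labels give both groups the replicate numbers 1 and 2, but the deviations of libraries with the same number did not move together (correlation −0.0831 across 9875 genes), so the numbers were not taken as pairs. With the replicate block, 612 of all genes were called. Bcl2 (adjusted p = 8.05e-04) and Bcl2l11 (adjusted p = 0.00387) were called under it by edgeR.

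The sign turned for 3 uncalled members with log2 fold changes near 0. With a library left out, Bcl2l1 ranged from −0.091 to 0.084 (positive without WT replicate 1), Mcl1 from −0.142 to 0.0085 (positive without Hnrnpf bKO replicate 1) and Bax from −0.057 to 0.094 (negative without WT replicate 1, and −0.013 without Hnrnpf bKO replicate 2). Of 157 comparisons of single genes with their reported values, 138 kept direction and side of the threshold, 14 lost the call, 1 gained it (the summed Bcl2a1 copies set beside Bcl2a1b) and 4 turned sign. With a library left out, the lone library of its group is assumed to vary like the other group. Depth limits Bcl2l1, Bbc3 and Pmaip1, whose mean counts of 104 to 142 gave standard errors of 0.17 to 0.20.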

Other observations

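The members differed in how many runs of at least 3 G their spliced transcripts hold, the kind of sequence that hnRNP F binds. In the longest coding transcript of GENCODE M21, Bax had 28.2 runs per kilobase, Bbc3 26.5, Bak1 20.9 and Bcl2l1 17.5, against a median of 12.2 over 11243 protein-coding genes tested. Bcl2 and Mcl1 had 13.5 each, Pmaip1 12.8 and Bid 10.1, and Bcl2l11 had 8.74 and Bcl2a1b 8.57. These are values of spliced sequence, introns were not analysed here, and no relation between runs and fold change was tested.

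Of the 50 other listed genes, 8 were too low to be tested. Bcl2a1c, Bcl2l10 and Hrk were at 0 counts in all 4 libraries, and Bik, Bok, Trp73 and Bcl2l15 had at most 12 counts in any library. Fadd, the adaptor of death receptors, had 333 and 444 counts in WT against 450 and 484 in Hnrnpf bKO cells (log2 fold change 0.35, adjusted p = 0.0652 by edgeR's quasi-likelihood test), and the libraries did not overlap in FPKM. Fadd was called with edgeR's exact test, without a count filter and without WT replicate 2.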
